A study of Caenorhabditis elegans with 20 samples.

Results

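The genes described here are those carried by the mitochondrial DNA of Caenorhabditis elegans, a nematode worm. They were taken as every entry of the deposited gene table placed on the chromosome named MtDNA, which gave 36 of 46904 genes: 12 that encode proteins, 2 that encode ribosomal RNAs (rRNAs) and 22 that encode transfer RNAs (tRNAs). All 14 protein-coding and rRNA genes had reads in each of the 12 replicates, and all 14 were abundant enough to be tested, with 16980 genes tested in all. Poly(A) RNA of whole young adults was sequenced in 4 groups of 3 replicates: ns889 with mold, ns889 without mold, wild type (WT) with mold, and WT without mold. ns889 is an allele whose gene the labels do not name, and the mold is Penicillium brevicompactum, which was present on the plates of the exposed animals. Every group was grown for about 48 hours after L1 arrest at 20 C on agar plates carrying Escherichia coli OP50 as food. The study asked which genes differ when animals meet the mold, in WT and in ns889. The labels do not say that replicates came from separate cultures, so the spread behind each p-value is that of these samples and may be technical. In RNA of whole animals, fewer cells of a type and less RNA per cell cannot be told apart.

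Mitochondrial DNA is copied and transcribed inside the mitochondrion by enzymes that are encoded in the nucleus. In animals it is read into long transcripts that are cut into single mRNAs, rRNAs and tRNAs, and the mRNAs receive poly(A) tails. The proteins are core subunits of respiratory complexes I, III and IV, which pass electrons to oxygen and pump protons, and of the ATP synthase, which uses the proton gradient to make ATP. The remaining subunits, all of complex II, and the proteins of the mitochondrial ribosome are nuclear gene products. The table gives gene IDs, and the gene names used here come from RefSeq's annotation of WBcel235, matched by position. All 36 genes lie on the plus strand. The names match the IDs as follows, in WBcel235 coordinates of mitochondrial DNA.

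Complex I, which takes electrons from NADH, is represented by ND6 (WBGene00010957, 113 to 549), ND4L (WBGene00010958, 549 to 783), ND1 (WBGene00010959, 1763 to 2635), ND2 (WBGene00010961, 3389 to 4269), ND4 (WBGene00010963, 6506 to 7808), ND3 (WBGene00010966, 11356 to 11691) and ND5 (WBGene00010967, 11691 to 13272). CYTB (WBGene00000829, 4504 to 5621) encodes cytochrome b of complex III. COX1 (WBGene00010964, 7827 to 9428), COX2 (WBGene00010965, 9649 to 10348) and COX3 (WBGene00010962, 5678 to 6449) encode the 3 core subunits of complex IV, cytochrome c oxidase, the complex that reduces oxygen. ATP6 (WBGene00010960, 2634 to 3235) encodes a subunit of the membrane part of the ATP synthase. The shorter rRNA (WBGene00014454, 898 to 1593) belongs to the small subunit of the mitochondrial ribosome and the longer rRNA (WBGene00014472, 10403 to 11354) to the large subunit. Neighbouring genes share few bases: 1 between ND6 and ND4L, 2 between ND1 and ATP6, 1 between ND3 and ND5, and at most 28 between a protein-coding gene and a tRNA gene (at ND2). How reads over shared bases, and reads that match more than 1 place, were counted is not given in the sources used here.

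Each of the 12 replicates held 95998037 to 115940062 counts. Levels are given as CPM, the count of a gene per total of its library times a constant, with TMM as a further factor per library. A count of 3 was taken as the limit of detection and corresponds to 0.0259 to 0.0313 CPM, for counting error only. Different genes are compared only as CPM per kilobase of gene length. Replicate 1 of each group had 1 sample and replicates 2 and 3 had 2 samples each, with titles ending in _1 and _2. The 2 samples were taken as sequencing runs of 1 replicate, which the titles do not state, and were summed.

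The level of mitochondrial transcripts recovered in poly(A) RNA spanned a wide range although the genes share a DNA molecule and a strand. CYTB was the most abundant per length, at 3846 ± 429 CPM per kilobase (mean ± SD, n = 12), followed by COX3 at 3191 ± 277 and COX1 at 3052 ± 197. Among all 46904 genes CYTB ranked 6, COX3 ranked 12 and COX1 ranked 14 by this measure. The ranges of these 3 genes over the replicates overlapped, at 3283 to 4451 for CYTB, 2843 to 3739 for COX3 and 2747 to 3410 CPM per kilobase for COX1. COX1, COX3 and CYTB together made up 77.9 to 80.6% of mitochondrial counts in every replicate.

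A second tier held COX2 at 829 ± 56.6 CPM per kilobase, ND1 at 679 ± 64.5, ND4 at 661 ± 73.1, ATP6 at 533 ± 170 and ND5 at 443 ± 39.7 (SD, n = 12). Each of these overlapped the next in its range over the replicates, but no replicate of COX2, at 705 to 907, reached the lowest COX1 value of 2747. The rRNAs came next, with 29.8 ± 2.4 CPM per kilobase for the longer and 25.5 ± 4.47 for the shorter, and their ranges overlapped as well. These rRNA values describe only molecules recovered by poly(A) selection.

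The least abundant of the 14 were 4 genes of complex I. ND3 had 10.1 ± 2.31 CPM per kilobase, ND6 had 6.75 ± 1.6, ND4L had 3.17 ± 0.495 and ND2 had 2.54 ± 0.390 (SD, n = 12). ND2 rests on 181 to 288 counts per replicate, ND4L on 50 to 102, ND6 on 217 to 394 and ND3 on 238 to 450. Per length, the counts of COX1 were 984 to 1549 times those of ND2 in the single replicates. Whether the way reads were counted or recovery by poly(A) selection enters this ratio was not tested. Complex I contributed both mid-level genes (ND1, ND4, ND5) and the lowest ones. Among the protein-coding counts, complex IV took 49.8 to 57.8%, complex III 25.9 to 32.6%, complex I 13.1 to 15.4% and ATP6 1.52 to 3.66%.

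**Figure D1:**
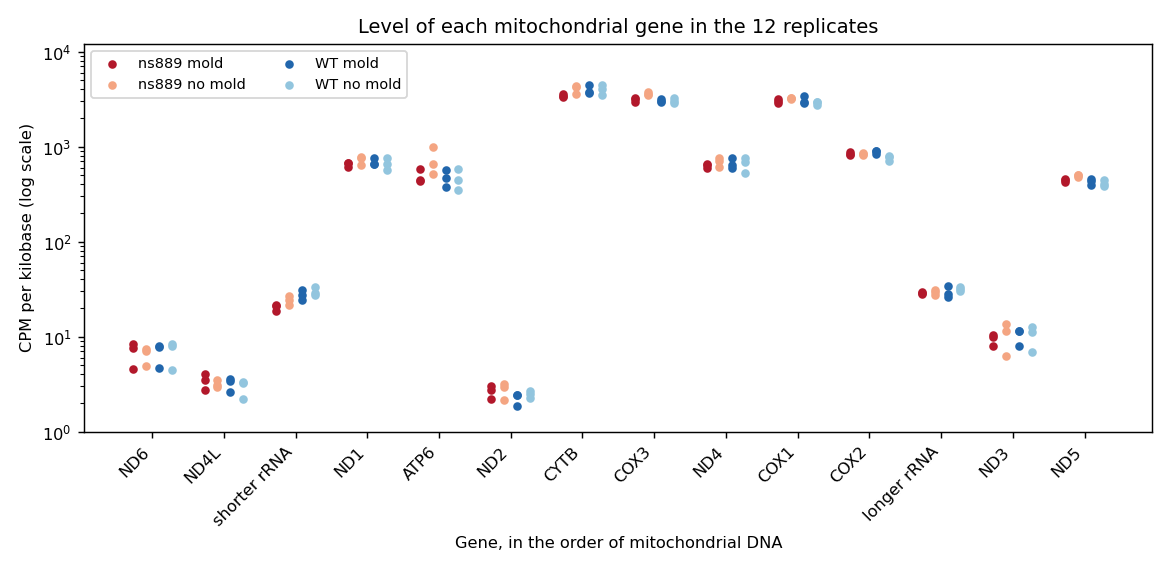
Level of the 14 protein-coding and rRNA genes in CPM per kilobase (log scale), in their order along mitochondrial DNA; each point is 1 replicate, coloured by group. CYTB, COX3 and COX1 lie at 2747 CPM per kilobase or higher in all 12 replicates, and ND3, ND6, ND4L and ND2 lie below 14.

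The medians of the nuclear genes of the same complexes lay below the 8 abundant mitochondrial genes and above the rRNAs, although single nuclear genes lay outside that range. The 28 nuclear complex I genes found of 32 listed had a median of 147 CPM per kilobase (18.6 to 320). The 7 of complex III had a median of 161 (63.9 to 293), the 7 found of 10 for complex IV had 326 (134 to 357), and the 10 found of 11 for the ATP synthase had 355 (96.9 to 1376). Complex II, which has no mitochondrial gene, had a median of 142 over 4 genes (67.0 to 201).

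Mitochondrial tRNAs were almost unseen in this poly(A) RNA. Of 22 tRNA genes, 52 to 62 bases long, 20 had 0 counts in all 12 replicates. WBGene00014458 had 6 counts in all, 4 in ns889 with mold replicate 3 and 2 in WT with mold replicate 1. WBGene00014463 had 2 counts, 1 in ns889 with mold replicate 1 and 1 in ns889 without mold replicate 2. Both are at or near the floor, and no comparison between groups was made.

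The share of all counts that came from mitochondrial DNA was 1.36 to 1.63% over the 12 replicates. It was 1.466, 1.437 and 1.467% in ns889 with mold, against 1.473, 1.595 and 1.629% in ns889 without mold. In WT it was 1.406, 1.361 and 1.564% with mold, against 1.404, 1.386 and 1.516% without mold. The 3 ns889 replicates with mold all lay below those without mold, while the WT groups overlapped almost fully. In ns889 the mean with mold was 1.46 ± 0.0173% and without mold 1.57 ± 0.0820% (SD, n = 3 each), a difference of -0.109 percentage points (SE 0.0484, two-sided exact permutation p = 0.1, the smallest that 3 against 3 allows). In WT the mean was 1.44 ± 0.106% with mold and 1.44 ± 0.0706% without mold, a difference of 0.00804 points (SE 0.0737, exact permutation p = 0.8).

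Set by genotype, ns889 without mold exceeded WT without mold by 0.130 points (SE 0.0625, exact permutation p = 0.2), and ns889 with mold exceeded WT with mold by 0.0132 points (SE 0.0622, exact permutation p = 0.9). Averaged over both conditions, ns889 had 1.51 ± 0.0798% and WT 1.44 ± 0.0809% (SD, n = 6 each), a difference of 0.0716 points (SE 0.0441, permuted exactly within conditions, p = 0.155). Averaged over both genotypes, animals with mold had 1.45 ± 0.0686% and animals without mold 1.501 ± 0.0988%, a difference of -0.0504 points (SE 0.0441, exact permutation p = 0.325). The 6 tests of this share had Benjamini-Hochberg adjusted p-values of 0.4 to 0.9, so none passed 0.05. The genotype difference was larger without 1 replicate, WT with mold replicate 3, at 0.102 points with an unadjusted exact permutation p of 0.02. Leaving out single replicates turned the sign of the smallest differences, which ran from -0.0520 to 0.0493 points for mold in WT and from -0.0281 to 0.0732 points for ns889 against WT with mold. Mold over both genotypes ran from -0.0804 points without WT with mold replicate 3 to -0.0298 points without WT with mold replicate 2. The mold responses of the genotypes differed by -0.117 points (SE 0.0882, ns889 minus WT), for which there is no exact test. That value ran from -0.163 points without ns889 without mold replicate 1 to -0.0568 points without WT with mold replicate 3.

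**Figure D2:**
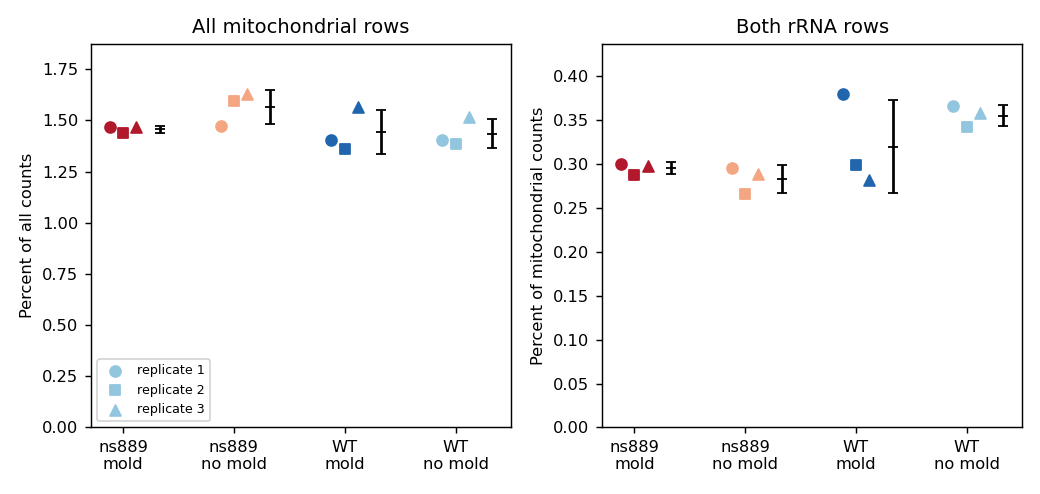
Left, percent of all counts from mitochondrial DNA; right, percent of mitochondrial counts from both rRNA genes. Points are replicates and bars are mean ± SD (n = 3); the left values lie between 1.36 and 1.63% in all groups, and on the right the 3 ns889 replicates without mold lie below the 3 WT replicates without mold.

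Of the single genes, the shorter rRNA was the only one of the 14 to pass the test in any of the 7 comparisons made. It fell in ns889 relative to WT over both conditions. It had 14.7, 12.9 and 15.1 CPM in ns889 with mold, against 21.4, 17.02 and 19.04 CPM in WT with mold. Without mold it had 14.9, 16.8 and 18.7 CPM in ns889, against 20.2, 19.1 and 23.4 CPM in WT. Within each condition the ns889 and WT replicates did not overlap, whereas over both conditions together they did, since 1 ns889 replicate without mold (18.7 CPM) lay above 1 WT replicate with mold (17.02 CPM).

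The log2 fold change of the shorter rRNA, averaged over conditions, was -0.38 ± 0.089 (SE, edgeR quasi-likelihood test, adjusted p = 0.0175). With mold it was -0.43 ± 0.13 (adjusted p = 0.0609) and without mold -0.32 ± 0.13 (adjusted p = 0.304), neither of which passed. DESeq2 called it with mold (-0.44, adjusted p = 0.0134). The averaged call was lost without ns889 with mold replicate 2 (-0.34, adjusted p = 0.0544) and with replicates 2 and 3 only (-0.30, adjusted p = 0.0557). Over all alternatives the log2 fold change ran from -0.42 to -0.30. This is 1 gene of 14, and over all tested genes 10.4% were called in either direction and 2.92% were called lower in this comparison.

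The longer rRNA, its partner in the other ribosomal subunit, did not pass. It had 28.1, 26.4 and 27.6 CPM in ns889 with mold, against 32.5, 24.7 and 26.5 CPM in WT with mold. Without mold it had 29.4, 26.3 and 28.3 CPM in ns889, against 30.0, 28.8 and 31.6 CPM in WT. These groups overlapped, and the log2 fold change over both conditions was -0.07 ± 0.071 (adjusted p = 0.568).

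Per length, the shorter rRNA stood at 0.709 ± 0.0403 of the longer in ns889 with mold and at 0.943 ± 0.0403 in WT with mold (SD, n = 3 each). Without mold the ratio was 0.823 ± 0.115 in ns889 and 0.948 ± 0.0563 in WT. Both rRNAs together made up 0.300, 0.288 and 0.298% of mitochondrial counts in ns889 with mold, against 0.380, 0.299 and 0.282% in WT with mold. Without mold they made up 0.296, 0.266 and 0.288% in ns889, against 0.366, 0.342 and 0.358% in WT. The ns889 and WT replicates without mold were fully separated, while those with mold overlapped because WT with mold spread widely.

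The rRNA share includes the shorter rRNA, so it is not independent of the call of that gene. Averaged over conditions, the rRNA share was 0.289 ± 0.0126% in ns889 and 0.338 ± 0.0392% in WT (SD, n = 6 each). The difference of -0.0483 points (SE 0.0163) had an exact permutation p of 0.04, and 0.24 after adjustment over the 6 tests of this share, so it did not pass. Without mold the difference was -0.0721 points (SE 0.0114, exact permutation p = 0.1, the smallest possible), and with mold -0.0246 points (SE 0.0306, exact permutation p = 0.8). The value with mold turned to 0.00536 points without WT with mold replicate 1 and was -0.0438 points without WT with mold replicate 3. Without WT with mold replicate 1, which had the highest share, the averaged difference was -0.0334 points (exact permutation p = 0.075). It also lost an unadjusted p under 0.05 without WT without mold replicate 1 (-0.0457 points, exact permutation p = 0.05) and without ns889 without mold replicate 2 (-0.0440 points, exact permutation p = 0.055). For mold against no mold, the rRNA share differed by 0.0123 points in ns889 (exact permutation p = 0.3) and by -0.0352 points in WT (exact permutation p = 0.4). The value in WT was -0.0651 points without WT with mold replicate 1 and -0.0160 points without WT with mold replicate 3. Over both genotypes it differed by -0.0114 points (exact permutation p = 0.485).

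Among complex IV genes, COX2 gave the smallest adjusted p for mold in WT. It had 635, 589 and 631 CPM in WT with mold, against 548, 494 and 554 CPM in WT without mold, and the groups did not overlap. In ns889 it had 619, 566 and 578 CPM with mold, against 602, 567 and 582.3 CPM without mold, and those groups overlapped. The log2 fold change was 0.22 ± 0.064 in WT (adjusted p = 0.0608) and 0.01 ± 0.064 in ns889 (adjusted p = 0.966), and neither passed. The mold responses of the genotypes differed by -0.21 ± 0.091 (edgeR adjusted p = 0.870), which did not pass either. In WT COX2 passed without WT without mold replicate 1 (0.24, adjusted p = 0.0262). For mold in WT that fit called 2263 of 17227 tested genes higher and 2547 lower, against 283 and 781 of 16980 in the main fit. Per length, COX2 stood at 0.277 ± 0.000910 of COX1 in ns889 with mold and 0.259 ± 0.0140 in ns889 without mold, and at 0.289 ± 0.0247 in WT with mold and 0.263 ± 0.00550 in WT without mold.

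COX3 was highest in ns889 without mold. Its values were 2477, 2268 and 2454 CPM in ns889 with mold and 2886, 2704 and 2731 CPM in ns889 without mold, and these did not overlap. In WT it had 2332, 2255 and 2444 CPM with mold and 2499, 2195 and 2314 CPM without mold, with full overlap. The log2 fold change for mold was -0.21 ± 0.067 in ns889 (adjusted p = 0.143) and 0.00 ± 0.067 in WT (adjusted p = 0.972). These 2 responses differed by -0.21 ± 0.094 (edgeR adjusted p = 0.870). For ns889 against WT the log2 fold change was 0.25 ± 0.067 without mold (adjusted p = 0.0775) and 0.03 ± 0.067 with mold (adjusted p = 0.770). None passed, but the value without mold passed with limma-voom (0.25, adjusted p = 0.0448), with the filter of 5 CPM (0.26, adjusted p = 0.0341) and without WT without mold replicate 1 (0.30, adjusted p = 0.0301). Averaged over conditions COX3 had 0.14 ± 0.047 for ns889 against WT (adjusted p = 0.0789). That value passed with total counts only (0.17, adjusted p = 0.0335), with the filter of 5 CPM (0.18, adjusted p = 0.0192) and when replicate 1 of WT without mold was left out (0.17, adjusted p = 0.0358). The ns889 replicates without mold enter both the mold comparison in ns889 and the genotype comparison without mold, so those 2 values are not independent.

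COX1, the catalytic subunit of complex IV, varied little, with a coefficient of variation of 6.44% over the 12 replicates. It had 5106, 4647 and 4783 CPM in ns889 with mold and 5019, 5250 and 5209 CPM in ns889 without mold. In WT it had 4628, 4676 and 5463 CPM with mold and 4731, 4401 and 4751 CPM without mold. The ns889 replicates without mold all lay above the WT replicates without mold, and the other pairs of groups overlapped. Its log2 fold changes were -0.09 for mold in ns889, 0.09 for mold in WT, -0.02 for ns889 against WT with mold and 0.16 without mold (SE 0.074 each, adjusted p 0.437 to 0.868).

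CYTB of complex III was lowest in ns889 with mold. It had 3671, 3780 and 3965 CPM in ns889 with mold, against 3978, 4819 and 4764 CPM in ns889 without mold. In WT it had 4173, 4136 and 4930 CPM with mold, against 3853, 4557 and 4976 CPM without mold. The ns889 groups did not overlap, although the closest replicates (3965 and 3978 CPM) lay near each other, and the WT groups overlapped. The log2 fold change for mold was -0.25 ± 0.11 in ns889 (adjusted p = 0.328) and -0.02 ± 0.11 in WT (adjusted p = 0.938). For ns889 against WT it was -0.21 ± 0.11 with mold (adjusted p = 0.229), where the replicates did not overlap, and 0.02 ± 0.11 without mold (adjusted p = 0.978). The mold responses of the genotypes differed by -0.23 ± 0.15 (edgeR adjusted p = 0.870).

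ATP6 had the widest spread of the 14 genes, with a coefficient of variation of 31.9% over all replicates. It had 267, 258 and 347 CPM in ns889 with mold, against 309, 396 and 595 CPM in ns889 without mold. In WT it had 338, 225 and 283 CPM with mold, against 268, 212 and 349 CPM without mold. The value of 595 CPM in ns889 without mold replicate 3 was the highest, and all pairs of groups overlapped. The log2 fold change was -0.58 ± 0.24 for mold in ns889 (adjusted p = 0.315) and 0.65 ± 0.24 for ns889 against WT without mold (adjusted p = 0.262). Both share the ns889 replicates without mold. In WT the mold value was 0.03 ± 0.24 (adjusted p = 0.953), and the mold responses of the genotypes differed by -0.60 ± 0.34 (adjusted p = 0.870).

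Of the complex I genes, ND5 had the smallest adjusted p for ns889 against WT without mold and for mold in ns889. It had 724, 664 and 705 CPM in ns889 with mold, against 759, 797 and 789 CPM in ns889 without mold. In WT it had 683, 624 and 716 CPM with mold, against 602, 631 and 711 CPM without mold. The ns889 replicates without mold lay above those of ns889 with mold and above those of WT without mold. The log2 fold change for ns889 against WT without mold was 0.27 ± 0.074 (adjusted p = 0.0857), and for mold in ns889 -0.16 ± 0.074 (adjusted p = 0.362). In WT the mold value was 0.06 ± 0.074 (edgeR adjusted p = 0.647), and the mold responses differed by -0.22 ± 0.105 (adjusted p = 0.870). Without WT without mold replicate 3 the difference of the genotypes without mold passed (0.34, adjusted p = 0.0444). Averaged over conditions ND5 had 0.16 ± 0.052 for ns889 against WT (adjusted p = 0.0757). That value passed with total counts only (0.19, adjusted p = 0.0228), with the filter of 5 CPM (0.20, adjusted p = 0.0335), and when replicate 3 of WT was left out, either the one without mold (0.20, adjusted p = 0.0348) or the one with mold (0.18, adjusted p = 0.0486).

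ND1 and ND4 overlapped in every pair of groups. ND1 had 538 to 590 CPM in ns889 with mold, 562 to 670 CPM in ns889 without mold, 566 to 661 CPM in WT with mold and 492 to 654 CPM in WT without mold. ND4 had 779 to 846 CPM in ns889 with mold, 796 to 981 CPM in ns889 without mold, 775 to 990 CPM in WT with mold and 694 to 982 CPM in WT without mold. The 4 rarest genes overlapped as well: over all replicates ND3 ranged from 2.11 to 4.52 CPM, ND6 from 1.94 to 3.67 CPM, ND2 from 1.64 to 2.80 CPM and ND4L from 0.513 to 0.942 CPM. Their standard errors were 0.19 to 0.30 on the log2 scale in the comparisons of 2 groups, a range that also held the abundant ATP6 (0.24). Changes of that size could not be told from 0 in these replicates.

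**Figure D3:**
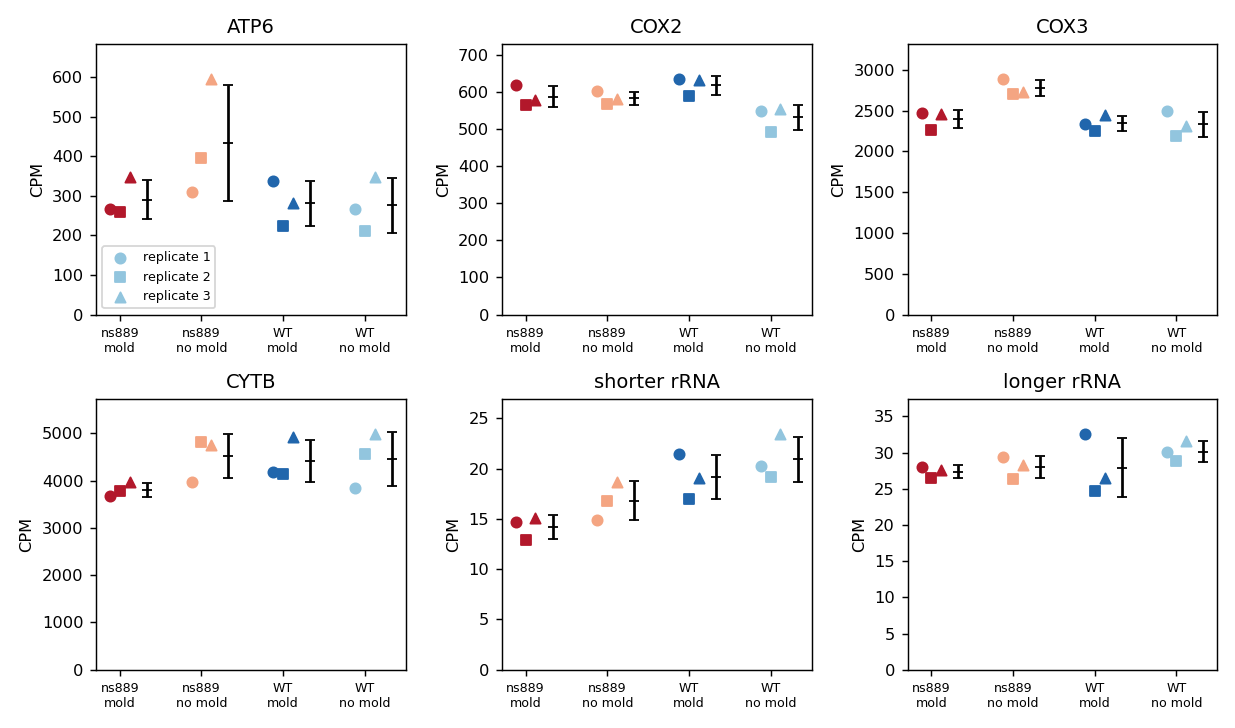
TMM-scaled CPM of 6 mitochondrial genes in each replicate, with mean ± SD of each group (n = 3) and axes that start at 0. The shorter rRNA is lower in ns889 than in WT within each condition, COX2 is higher in WT with mold than in WT without mold, and COX3 is highest in ns889 without mold.

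Counted over the 14 genes, none passed for mold in ns889 (4 at an unadjusted p under 0.05) and none for mold in WT (1 at an unadjusted p under 0.05). Among all tested genes 3.14% were called for mold in ns889 and 6.27% in WT. None passed for ns889 against WT with mold or without mold (1 and 4 at an unadjusted p under 0.05), where 6.73% and 2.87% of all genes were called. For mold averaged over genotypes none passed (1 at an unadjusted p under 0.05), against 14.8% of all genes, 4.7% higher and 10.1% lower. For the difference of the mold responses none passed (2 at an unadjusted p under 0.05), against 0.13% of all genes. DESeq2 called 1 gene in ns889 against WT with mold, the shorter rRNA, and limma-voom called 1 without mold, COX3. Both called 0 in the other comparisons where edgeR called none.

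The median log2 fold change of the 14 genes was -0.14 for mold in ns889 (-0.02 over all tested genes) and 0.01 in WT (0.01 over all tested genes). For ns889 against WT it was -0.02 with mold (-0.01 over all tested genes) and 0.13 without mold (-0.01 over all tested genes). The signs of the medians for mold in WT and for ns889 against WT with mold depended on the setting. Total counts only gave -0.01 and 0.06, the filter of 5 CPM gave -0.03 and 0.01 over the 10 genes left, and leaving out WT with mold replicate 3 gave -0.04 and 0.04. The median for mold in WT was also below 0 without a filter (-0.0067), with the first run only (-0.0064), with only the groups compared (-0.0039), without WT without mold replicate 1 (-0.07) and with replicates 2 and 3 only (-0.07). For mold in ns889 and for ns889 against WT without mold total counts gave -0.07 and 0.11. Averaged over the other factor, the medians were -0.06 for mold (0.00 over all tested genes) and 0.03 for ns889 against WT (0.00 over all tested genes).

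Replicates did not overlap in 3 of 14 genes for mold in ns889 (CYTB, COX3 and ND5), where 31.6% of all tested genes did not, and in 1 of 14 for mold in WT (COX2), against 17.5%. For ns889 against WT they did not overlap in 2 of 14 genes with mold (CYTB and the shorter rRNA), against 31.4%. Without mold 5 of 14 (COX1, COX2, COX3, ND5 and the shorter rRNA) did not overlap, against 18.3%. With 6 against 6 replicates, 0 of 14 were separated for mold or for genotype, where 3.52% and 5.71% of all genes were.

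**Figure D4:**
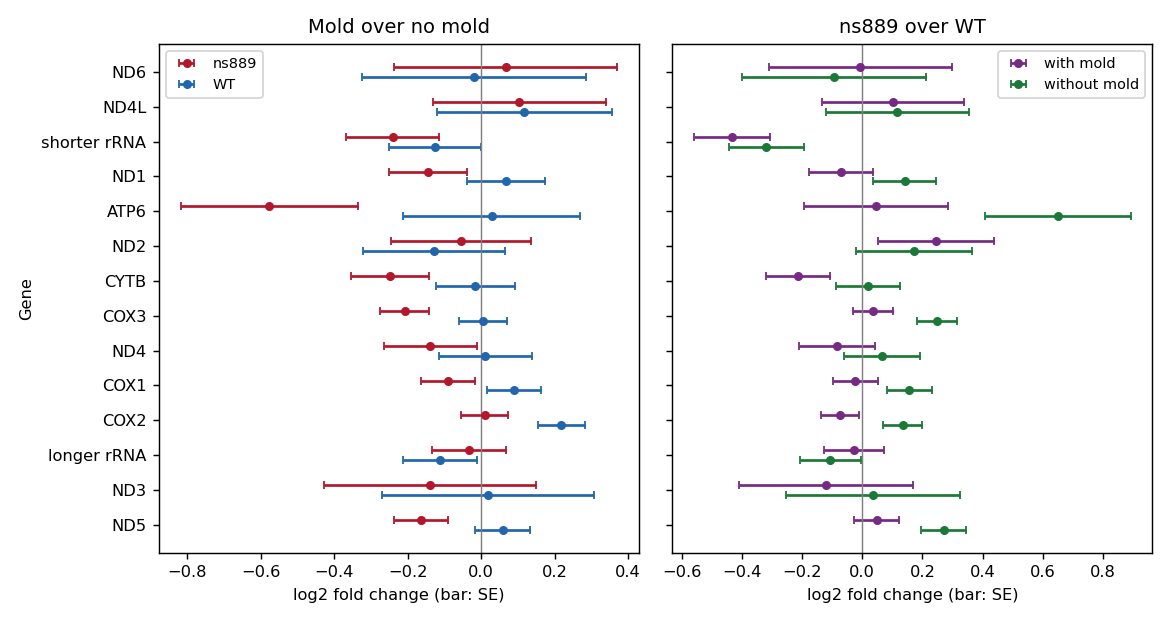
Log2 fold change of each of the 14 genes with its SE (edgeR), left for mold over no mold in each genotype and right for ns889 over WT in each condition. ATP6 has the widest bars among the abundant genes, and the shorter rRNA lies below 0 for ns889 over WT both with mold (-0.43) and without mold (-0.32).

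Some genes took a different share of mitochondrial counts in replicate 1, the replicate with a single sample, than in replicates 2 and 3, in all 4 groups. ND6 took 0.0139 to 0.0144% in the replicates numbered 1, against 0.0188 to 0.0267% in the others. ND3 took 0.0141 to 0.0189% against 0.0237 to 0.0278%, ND4 5.05 to 5.48% against 5.65 to 6.45%, and ND1 3.58 to 4.01% against 4.05 to 4.28%. The other 10 genes overlapped. How many of all tested genes are separated in this way was not counted, so the separation is not shown to be particular to mitochondrial genes. Each group holds 1 replicate of the first kind and 2 of the second.

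Some of the nuclear genes that serve mitochondrial gene expression differed between the genotypes. rpom-1 (WBGene00013680), which encodes the mitochondrial RNA polymerase, rose in ns889, with 86.1 ± 2.39 CPM in ns889 with mold and 67.6 ± 1.86 CPM in WT with mold (SD, n = 3 each). Without mold it had 84.0 ± 2.01 CPM in ns889 and 61.3 ± 0.600 CPM in WT. No ns889 replicate, at 82.65 CPM or above, overlapped a WT replicate, at 69.5 CPM or below. Its log2 fold change over both conditions was 0.40 ± 0.038 (adjusted p = 2.57e-05).

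Of 8 tested genes of mitochondrial DNA replication and transcription (11 listed), 3 rose in ns889 and none fell, where 7.48% of all tested genes rose. Besides rpom-1 these were mtss-1, which encodes a mitochondrial single-stranded DNA binding protein (0.30 ± 0.046, adjusted p = 0.000855), and tfbm-1, which encodes a mitochondrial transcription factor B homolog (0.37 ± 0.081, adjusted p = 0.0116). The count of 3 was the same under all 23 alternatives. The median log2 fold change over all 8 was -0.0017, against -0.0040 over all tested genes. polg-1, the mitochondrial DNA polymerase gene, and hmg-5, which encodes a packaging protein of mitochondrial DNA, did not pass. polg-1 had 24.6 ± 0.427 CPM in ns889 with mold and 23.8 ± 0.746 CPM in WT with mold, and hmg-5 had 46.9 ± 1.87 CPM in ns889 with mold and 52.8 ± 4.26 CPM in WT with mold.

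Of 70 genes of mitochondrial ribosomal proteins, 22 rose in ns889 and none fell, where 7.48% of all tested genes rose and 2.92% fell. The median log2 fold change of the 70 was 0.14 (0.00 over all tested genes). mrpl-22 had the largest change of those named here: it had 33.3 ± 1.67 CPM in ns889 with mold and 25.0 ± 0.926 CPM in WT with mold, and without mold 32.9 ± 1.04 CPM in ns889 and 24.5 ± 1.22 CPM in WT (SD, n = 3 each). Its log2 fold change was 0.42 ± 0.053 (adjusted p = 0.000254). mrpl-11 (0.34 ± 0.043, adjusted p = 0.000248) and mrpl-9 (0.30 ± 0.040, adjusted p = 0.000319) rose as well. In the single conditions 6 of 70 rose with mold, where 5.12% of all genes did, and 10 of 70 rose without mold, where 2.42% did. The count over both conditions ran from 17 to 25 when single replicates were left out, and was 27 with total counts only. Over all genes that scaling gave 1561 higher and 344 lower calls, against 1270 and 496 with TMM. With mold alone it gave 1309 higher and 183 lower, against 870 and 273.

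Among 6 tested genes of mitochondrial translation factors and RNA processing (11 listed), 2 rose in ns889: gfm-1, which encodes a mitochondrial elongation factor G (0.47 ± 0.046, adjusted p = 2.71e-05), and pus-1, which encodes a pseudouridine synthase (0.42 ± 0.045, adjusted p = 5.66e-05). Of all tested genes 7.48% rose in this comparison. With total counts only 5 of the 6 rose, where 1561 of 16980 tested genes rose, against 1270 with TMM. The count in this list was 3 without WT with mold replicate 3.

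Nuclear subunits of the respiratory complexes gave 3 calls for ns889 against WT, where 7.48% of all tested genes rose and 2.92% fell. Of 28 complex I genes, gas-1 rose (0.18 ± 0.048, adjusted p = 0.0316) and nduf-2.2 fell (-0.14 ± 0.035, adjusted p = 0.0194). The gas-1 call was lost in 8 of the 12 fits that left out 1 replicate, and that of nduf-2.2 in 5 of 12. Of 7 complex III genes ucr-2.3 fell (-0.17 ± 0.036, adjusted p = 0.00825) in all 12 of these fits. None passed of 4 complex II, 7 complex IV and 10 ATP synthase genes, and their medians were -0.03, -0.07 and -0.05. In these 3 lists edgeR also gave 0 genes at an unadjusted p under 0.05, and DESeq2 and limma-voom called 0.

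For mold against no mold averaged over genotypes, edgeR called none of the nuclear genes of the complexes, of mitochondrial DNA replication and transcription, of the mitochondrial ribosome or of translation. Over all tested genes 4.7% were called higher and 10.1% lower in this comparison. At an unadjusted p under 0.05 there were 2 genes of replication and transcription, 2 of the ribosome and 0 of the others, where 5250 of 16980 tested genes were. DESeq2 called 1 mitochondrial ribosomal protein gene and limma-voom none. rpom-1 had a log2 fold change of 0.09 ± 0.038 (adjusted p = 0.141).

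**Figure D5:**
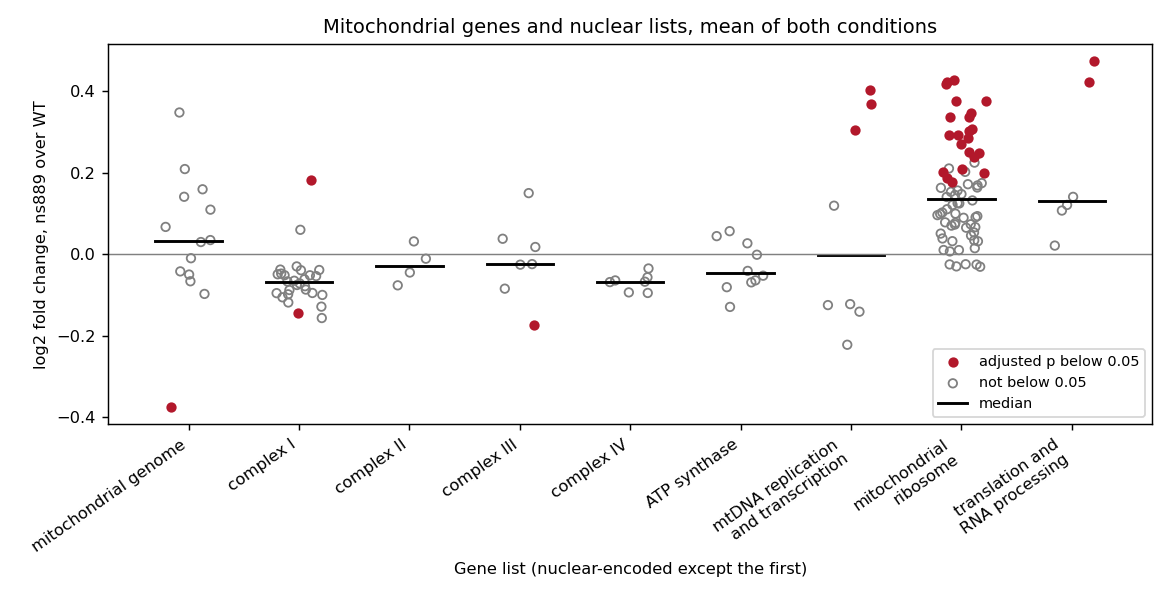
Log2 fold change of ns889 over WT, averaged over conditions, for the 14 mitochondrial genes (first column) and for nuclear genes by list. Filled points passed the edgeR test and lines are medians; in the column of 70 mitochondrial ribosomal protein genes 22 are filled and all of these lie above 0.

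Mitochondrial stress and turnover genes gave single calls. Of 12 genes of the mitochondrial unfolded protein response, hsp-6, which encodes a mitochondrial Hsp70 chaperone, rose in ns889 (0.28 ± 0.048, adjusted p = 0.00236), with 1217 ± 28.3 CPM in ns889 with mold and 1025 ± 14.9 CPM in WT with mold. hsp-60, a mitochondrial chaperonin gene, did not pass (adjusted p = 0.0909), with 709 ± 58.2 CPM in ns889 with mold and 614 ± 76.6 CPM in WT with mold. atfs-1, which encodes the transcription factor of this response, rose with mold (0.47 ± 0.042, adjusted p = 3.4e-05). It had 107 ± 5.13 CPM in ns889 with mold and 74.1 ± 1.38 CPM in ns889 without mold, and in WT 99.2 ± 1.99 CPM with mold and 73.8 ± 3.63 CPM without mold. Both calls held in all 12 fits that left out 1 replicate. Of 10 genes of mitophagy and mitochondrial dynamics 2 rose with mold and 1 in ns889. Of 13 tested genes of alternative electron routes (15 listed) 1 fell with mold and 1 rose in ns889. Over all tested genes 4.7% rose and 10.1% fell with mold and 7.48% rose in ns889. Each of these 5 calls was lost in at least 7 of the 12 fits that left out 1 replicate.

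Some tissue markers also differed, and their part in the results above was not tested. In ns889 relative to WT 5 of 15 germline markers and 2 of 15 oocyte markers fell, 2 of 15 sperm markers rose, 1 of 14 intestine markers fell, and none of 15 body wall muscle or 15 neuron markers passed (3 and 2 at an unadjusted p under 0.05; DESeq2 called 1 and 0). Of all tested genes 2.92% fell and 7.48% rose in this comparison. Germline markers summed to 4342 to 4589 CPM in ns889 with mold, 4273 to 4584 CPM in ns889 without mold, 4840 to 5614 CPM in WT with mold and 4689 to 4996 CPM in WT without mold, so the genotypes did not overlap. Without ns889 with mold replicate 2 only 1 germline marker fell. With mold 8 of 15 sperm markers fell (4 to 11 when single replicates were left out), and they summed to 348 to 416 CPM in ns889 with mold, 475 to 491 CPM in ns889 without mold, 220 to 354 CPM in WT with mold and 358 to 561 CPM in WT without mold. Oocyte markers summed to 6870 to 8132 CPM in ns889 with mold, 6174 to 6962 CPM in ns889 without mold, 8147 to 10352 CPM in WT with mold and 6429 to 9298 CPM in WT without mold. With mold 1 of 15 oocyte and 1 of 14 intestine markers rose and 1 of 15 muscle markers fell. Of all tested genes 10.1% fell and 4.7% rose with mold. Without WT without mold replicate 1 the counts with mold were 13 oocyte markers higher and 12 muscle markers lower. That fit called 2432 of 17227 tested genes higher and 2986 lower, against 798 and 1709 of 16980 in the main fit. No marker was at 0 in every replicate.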

How the data were processed

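Poly(A) RNA was sequenced with a stranded TruSeq kit, per the labels' protocols, in 20 samples that make up 12 replicates. The authors deposited a table of whole-number counts per gene, without normalization. The submitters' processing notes name FastQC 0.11.12, STAR 2.4a, featureCounts, edgeR 3.28.1, limma 3.42.2 and the genome WBcel235. For strand, shared bases and multiple matches the counting settings are not stated there. Runs of a replicate were summed.

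After filterByExpr and TMM scaling, 1 edgeR model of the 4 group means was fitted (R 4.3.3, edgeR 4.0.16, robust quasi-likelihood, no covariates). Benjamini-Hochberg adjustment ran over the 16980 genes tested, and 0.05 was the threshold. The steps were tested on simulated data. Shares were compared by two-sided exact permutation of replicates, within the other factor where both conditions or genotypes were averaged (smallest p 0.005). Gene names came from RefSeq WBcel235 by position for the 12 protein-coding genes. Figures used matplotlib 3.10.9.

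The members and lists were chosen with earlier results of these data known. Named genes were all protein-coding and rRNA genes of mitochondrial DNA, up to 3 called genes with the smallest p of each nuclear list (the 2 most abundant where none was called), and polg-1, hmg-5, rpom-1, hsp-6 and hsp-60; some list genes are left out for length. Lists covered nuclear subunits of the 5 complexes, mitochondrial DNA replication and transcription, the mitochondrial ribosome, translation factors and RNA processing, the mitochondrial unfolded protein response, mitophagy and dynamics, alternative electron routes and 6 tissues. Alternatives were RLE factors, total counts, TMM without mitochondrial genes, DESeq2 1.42.0, limma-voom (limma 3.58.1), no filter, at least 5 CPM in 3 replicates, the first run, the replicate number as a block, only the groups compared, other denominators of the shares, each replicate left out, and, chosen after seeing the data, replicates 2 and 3 only.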

Additional observations from a re-analysis of the deposited data

How the results depend on the processing

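The number of mitochondrial genes called for ns889 against WT over both conditions, 1 in the main fit, ran from 0 to 3 under the alternatives. No test of a share passed after adjustment, so a change of direction past the threshold could not be judged for the shares. The labels do not say that a replicate number marks a shared batch, and the numbers were not taken to pair the samples: deviations of same-numbered replicates correlated at -0.48 to 0.513 over 18 pairs, 8 of them above 0.1, and 7 of 12 replicates correlated best with their own number. With the replicate number as a block 2 mitochondrial genes were called for ns889 against WT over both conditions (the shorter rRNA and COX3), 1 with mold (the shorter rRNA, -0.43, adjusted p = 0.0457) and 1 without mold (COX3, 0.25, adjusted p = 0.0383), and the rRNA share difference over both conditions was -0.0483 points (exact sign-flip permutation p = 0.0938). For the same comparison total counts and the filter of 5 CPM each called 3 genes and leaving out single replicates 0 to 2. Over all genes, total counts called 1561 higher and 344 lower of 16980, and the filter of 5 CPM 934 and 273 of 10059. Without mold limma-voom and the filter of 5 CPM called 1 gene, and leaving out single replicates gave 0 to 1. With mold DESeq2 called 1. For mold in WT, leaving out single replicates gave 0 to 1. The fit that gave 1, without WT without mold replicate 1, called 2263 of 17227 tested genes higher and 2547 lower. Replicates 2 and 3 only called 2 for mold in WT, 2 for mold over both genotypes and 0 for ns889 against WT over both conditions. Of all 17032 genes tested, this fit called 2883 higher and 3304 lower for mold in WT. The counts were 2277 higher and 3046 lower for mold over both genotypes, and 1692 and 677 for ns889 against WT over both conditions. With the replicate block on top, replicates 2 and 3 called 2364 of all genes higher and 3061 lower for mold in WT, and 262 and 196 in ns889. For mold over both genotypes the counts were 1827 and 2784. For ns889 against WT they were 2411 and 866 with mold, 382 and 167 without mold, and 1501 and 486 over both. Of the mitochondrial genes, this fit called 1 for mold in WT, 1 for mold in ns889 and 3 for mold over both genotypes. For ns889 against WT it called 1 with mold, 1 without mold and 2 over both. ATP6 was among these for mold in ns889 (-0.69, adjusted p = 0.0044), for mold over both genotypes (-0.41, adjusted p = 0.00256) and for ns889 against WT without mold (0.84, adjusted p = 0.00208) and over both conditions (0.56, adjusted p = 0.000666). The cause of these changes was not tested.

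The difference of the mold responses in the mitochondrial share was 0.000375 points from rRNA genes only and -0.217 points on TMM-scaled totals. The genotype difference in that share ran from 0.0510 to 0.102 points when single replicates were left out. The genotype difference in the rRNA share ran from -0.0579 to -0.0334 points, and was -0.0350 points (exact permutation p = 0.222) with replicates 2 and 3 only. The difference of mold responses in the rRNA share, 0.0475 points, ran from 0.0283 to 0.0774 points, and was 0.0760 points with replicates 2 and 3 only.

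Counts of calls over all tested genes moved more: 83 to 6187 for mold in WT, 209 to 1634 for mold in ns889, 545 to 4113 for ns889 against WT with mold and 319 to 809 without mold. They were 1015 to 5418 for mold over both genotypes, 1199 to 2572 for ns889 against WT over both conditions and 14 to 703 for the difference of responses. Values that did not pass were free to change sign, as 14 of 197 shares and 172 of 1946 gene values did. Depth limits ND4L most, with 50 to 102 counts per replicate.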
